A study of Mus musculus with 18 samples.

Results

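The comparison described here is that of old female mouse livers after ouabain with old female mouse livers after vehicle, across all genes that could be tested. It uses 12 of the 18 libraries of the series, namely 6 of old ouabain and 6 of old vehicle, and 13951 of the 37620 genes in the count table, those with a library-scaled count (CPM) of at least 1 in at least 6 of the 12 libraries. The mice of both groups were female, are labelled 24 months of age, and differ in the labels by the treatment alone. Each round of ouabain consisted of 4 treatments within 1 week at a dose of 1 mg/kg. Rounds were separated by 2 weeks of rest over 12 weeks, and tissue was collected 3 days after the final one. The sources used here do not give the strain, the route or the makeup of the vehicle. The design text counts 16 old mice aged 21 to 22 months, and how the 12 libraries relate to them is not stated. No genotype is labelled, and each title names a separate replicate, so the p-values measure the spread between these samples.

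Ouabain is a cardiac glycoside that binds the alpha subunit of the Na,K-ATPase, the pump that moves sodium out of and potassium into every animal cell. It also kills some senescent cells in culture, and senescent cells accumulate with age in tissues such as the liver. Hepatocytes make up most of the liver's RNA, while Kupffer cells and other immune cells, endothelium, stellate cells and bile ducts supply the rest. Many mouse hepatocyte genes differ between the sexes. The pattern of growth hormone release drives that difference through the transcription factor STAT5b, with BCL6 enriched in male and CUX2 in female liver. Whole liver was measured, so fewer cells of a type and less RNA per cell cannot be told apart in any result below.

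Library totals ran from 4201251 counts (ouabain replicate 5) to 10695176 counts (ouabain replicate 1), and the next shallowest library had 7527846. The first principal component held 25.4% of the variance and ran from -36.8 to 4.78 in vehicle livers and from 1.14 to 29.5 in ouabain livers, so that the groups overlapped there between vehicle replicate 6 and ouabain replicates 1 and 2. The labelled tissue was borne out by its markers. Albumin (Alb) stood at 70089 to 115382 CPM in vehicle and 77206 to 99329 CPM in ouabain livers, and the log2 fold change was -0.02 (SE 0.12, adjusted p = 0.948 by edgeR). Only 6 of 29 markers of other tissues passed the filter and none of them changed.

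With edgeR's quasi-likelihood test, 213 genes (1.53% of those tested) differed between the groups at an adjusted p below 0.05. Of these, 119 (0.853%) rose with ouabain and 94 (0.674%) fell. Log2 fold changes below are ouabain relative to vehicle throughout, and CPM values are scaled by TMM. Most changes were modest. Only 17 of the rises and 26 of the falls exceeded 2-fold, and the median log2 fold change was 0.53 among the rises and -0.77 among the falls, against -0.01 over all genes tested. The genes that rose were also better expressed, at a median of 29.4 CPM in vehicle livers, than those that fell (14.9 CPM) or all tested genes (14.0 CPM). A further view that needs no model is whether the 6 ouabain libraries lie wholly above or below the 6 vehicle libraries. That held for 287 genes (2.06%), including 140 of the 213.

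The count of changed genes rested on single libraries. It was 48 without ouabain replicate 3, 49 without ouabain replicate 6, 59 without ouabain replicate 4, 77 without ouabain replicate 5, 62 without vehicle replicate 2, 87 without vehicle replicate 3, 121 without vehicle replicate 1 and 122 without vehicle replicate 5. It was 553 without ouabain replicate 1 and 470 without vehicle replicate 6, the pair of libraries that lay closest to the other group. Without both vehicle replicate 4 and ouabain replicate 5 it was 99. None of the 213 genes reversed in any fit. A core of 41 genes, 24 that rose and 17 that fell, passed the threshold whichever library was left out, and those genes are called steady below. For other changed genes the number of the 12 leave-one-out fits passed is given. Beside the genes picked by a set rule, the text names steady genes and further genes of the groups described, which were chosen after their values were seen.

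**Figure D1:**
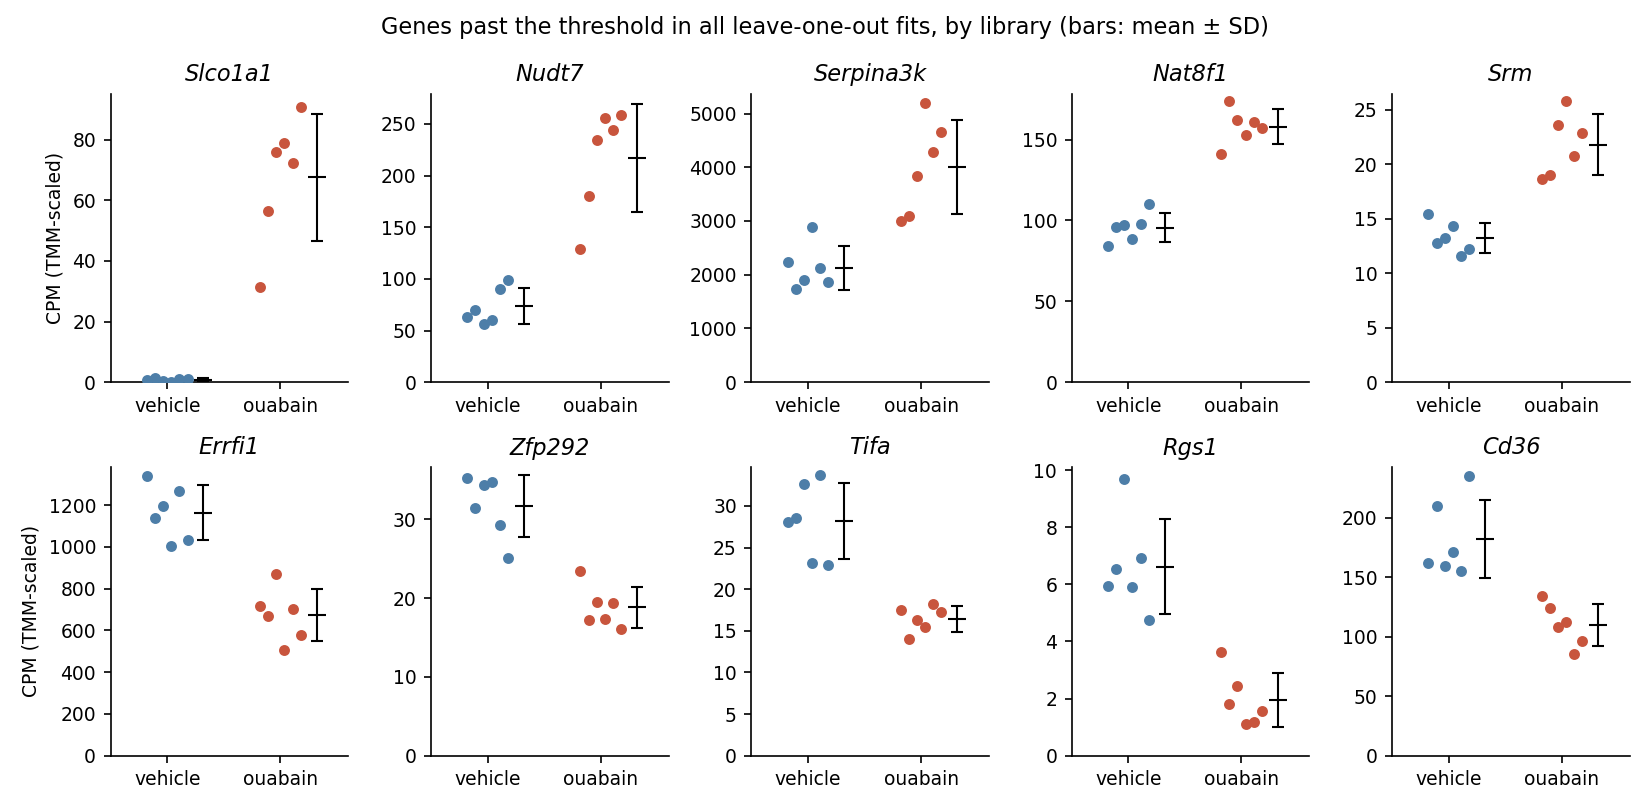
CPM in each of the 12 libraries for 10 genes that passed the threshold in all 12 leave-one-out fits, with the mean and SD of each group as black bars and 0 at the foot of each axis. In each of the 10 genes the 6 ouabain libraries lie wholly on one side of the 6 vehicle libraries.

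Some genes that are expressed more in male than in female mouse liver rose with ouabain in these females. The 35 male-biased genes were listed with earlier results of these data known, so their counts are a description and no independent test. Of the 35, 28 passed the filter. Among them 10 rose and none fell, where 0.853% of all tested genes rose, and the list median was 0.70 on the log2 scale. Of these, 3 (Slco1a1, Cyp2u1 and Susd4) reached 1 CPM in fewer than 6 vehicle libraries and so passed the filter through their ouabain values. The rises were Slco1a1, Nudt7, Cyp2d9, Cyp2u1, Keg1, Serpina1e, Susd4, Mup20, Selenbp2 and Ugt2b1.

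The largest was Slco1a1, which encodes a hepatocyte transporter that takes up organic anions such as bile acids and steroid conjugates (ENSMUSG00000041698, chromosome 6). Vehicle livers had 0 to 1.25 CPM with a median of 0.934, where the 0 in replicate 4 allows up to 0.299 CPM. Ouabain livers had 31.4 to 90.7 CPM with a median of 74.1, lowest in replicate 1. Every ouabain library was therefore above every vehicle library, and the log2 fold change was 6.38 (SE 0.39, adjusted p = 3.05e-05 by edgeR). Nudt7, a peroxisomal hydrolase of coenzyme A and its esters (chromosome 8), was steady as well. It stood at 56.2 to 99.1 CPM (median 66.7) in vehicle livers and at 129 to 259 CPM (median 239) after ouabain, with a log2 fold change of 1.56 (SE 0.19, adjusted p = 0.00502). Again the groups did not overlap, with ouabain replicate 1 the lowest of its group.

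The cytochrome P450 enzyme Cyp2d9 (chromosome 15) was held within 25.6 to 32.6 CPM in vehicle livers. With ouabain it spread from 47.2 to 104 CPM around a median of 75.9, all above the vehicle range (log2 fold change 1.36, SE 0.18, adjusted p = 0.00638). Cyp2u1, a fatty acid hydroxylase of the same superfamily, was near the detection limit in vehicle livers at 0.419 to 1.54 CPM and reached 2.08 to 6.61 CPM with ouabain. Its log2 fold change was 1.93 (SE 0.31, adjusted p = 0.00884), and it was steady. The highest value, in ouabain replicate 5, came from the shallowest library. Serpina1e, an alpha-1 antitrypsin gene of the mouse cluster, was one of the most abundant of the set, at 900 to 1511 CPM in vehicle and 1433 to 2240 CPM in ouabain livers. The ranges met, and the rise (0.78, SE 0.14, adjusted p = 0.0177) passed 10 of the 12 leave-one-out fits.

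Susd4 (1.40, SE 0.26, adjusted p = 0.0204), whose product inhibits complement, passed 9 of the 12 leave-one-out fits. Mup20, the male urinary pheromone protein also called darcin, rose by 1.91 (SE 0.33, adjusted p = 0.0232) and passed 7. Reads of the Mup genes can be split among near-identical copies, so that value is uncertain. Selenbp2 (0.62, adjusted p = 0.0251) passed 7, and Ugt2b1 (0.53, adjusted p = 0.031), a glucuronosyltransferase of a family of close relatives, passed 4. In both, the highest vehicle library overlapped the ouabain range.

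Keg1, a glycine N-acyltransferase-like gene of chromosome 19, was also steady. It rose from 23.5 to 47.1 CPM (median 36.4) in vehicle livers to 51.7 to 73.4 CPM (median 62.4) with ouabain, without overlap (log2 fold change 0.85, SE 0.14, adjusted p = 0.0142). Its promoter is shown because, among the male-biased genes that rose and had a window in the RefSeq promoter table, it held the spaced palindrome TTCNNNGAA that STAT5 proteins bind. The 250 bases before its start site on the plus strand (RefSeq, GRCm38.p6, chr19:12695540-12695789) hold the palindrome at positions -173 and -107, in capitals.
Keg1: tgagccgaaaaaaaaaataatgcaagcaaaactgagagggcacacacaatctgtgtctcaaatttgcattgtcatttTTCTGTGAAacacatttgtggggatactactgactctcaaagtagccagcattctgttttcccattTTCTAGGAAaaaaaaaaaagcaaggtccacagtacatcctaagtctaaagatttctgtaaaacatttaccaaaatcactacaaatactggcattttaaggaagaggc
The palindrome reads alike on both strands, and 8.57% of the 9641 tested genes with a promoter window had it. It was in 7 of 84 genes that rose (8.33%) and in 9 of 63 that fell (14.3%). The letters are a description of the window and do not show that a factor binds there.

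Some male-biased genes were too low to be tested or did not pass. Hsd3b5, a steroid dehydrogenase of male liver, had 6 counts in all vehicle livers together and 304 in the ouabain livers, with 0 to 3 and 5 to 89 counts per library. Cyp4a12a had 1 count against 20, and Cyp4a12b had 0 against 14, which is at least 5.36-fold higher when the vehicle group is set to a floor of 3 counts. Elovl3, a fatty acid elongase, had a log2 fold change of 1.58 (SE 0.43, adjusted p = 0.0769), and Egfr, the receptor of epidermal growth factor, one of 1.45 (SE 0.38, adjusted p = 0.0813). Cyp7b1, an oxysterol hydroxylase, did not share the direction (-0.28, SE 0.18, adjusted p = 0.397), nor did Lifr, the receptor of leukaemia inhibitory factor (-0.39, SE 0.54, adjusted p = 0.719).

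The 40 female-biased genes tested gave 1 fall and no rise by edgeR, where 0.674% of all tested genes fell, with a list median of -0.26 (28 of 40 below 0). DESeq2 called 7 falls and quality weights 5, 14 genes were lower at an unadjusted p below 0.05, and the GC correction described below left no call by edgeR. Sult2a2, which sulfonates steroids and bile acids, fell from 412 to 732 CPM (median 578) to 272 to 477 CPM (median 382), with overlapping groups. Its log2 fold change was -0.58 (SE 0.14, adjusted p = 0.0495), and it passed 4 of the 12 leave-one-out fits. The abundant cytochrome Cyp3a41a was at 1432 to 3007 CPM in vehicle and 715 to 2062 CPM in ouabain livers without passing (-0.72, SE 0.23, adjusted p = 0.118). Cyp2b9 ranged from 5.99 to 507 CPM among the vehicle livers alone (0.27, SE 0.71, adjusted p = 0.862). Sult1e1, the estrogen sulfotransferase, had the lowest log2 fold change of the list (-3.16, SE 1.11, adjusted p = 0.156), and its vehicle mean rested on replicate 1 at 315 CPM against 9.17 to 18.2 CPM in the other 5.

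The known regulators of this sex difference did not pass the threshold. Ghr, the growth hormone receptor, had a log2 fold change of -0.25 (SE 0.21, adjusted p = 0.527), and Stat5b one of -0.17 (SE 0.12, adjusted p = 0.432). Bcl6 was at 6.43 to 10.9 CPM in vehicle and 5.87 to 29.5 CPM in ouabain livers (0.84, SE 0.35, adjusted p = 0.204), and Cux2 at 36.6 to 71.8 and 32.4 to 60.5 CPM (-0.32, SE 0.17, adjusted p = 0.316). Igf1, the growth factor that the liver secretes under growth hormone, differed by 0.07 (SE 0.08, adjusted p = 0.662). In the 22 growth hormone axis genes tested, 1 rose, which was Serpina3k, where 0.853% of all tested genes rose, and the median was 0.00. DESeq2 called 1 rise, and 5 genes were higher and 1 lower at an unadjusted p below 0.05.

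Serpina3k, a secreted serine protease inhibitor, had the highest level of all steady genes (chromosome 12). It was at 1737 to 2888 CPM (median 2011) in vehicle livers and at 2995 to 5198 CPM (median 4060) with ouabain, so the groups were separate but close. The log2 fold change was 0.92 (SE 0.15, adjusted p = 0.0116).

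**Figure D2:**
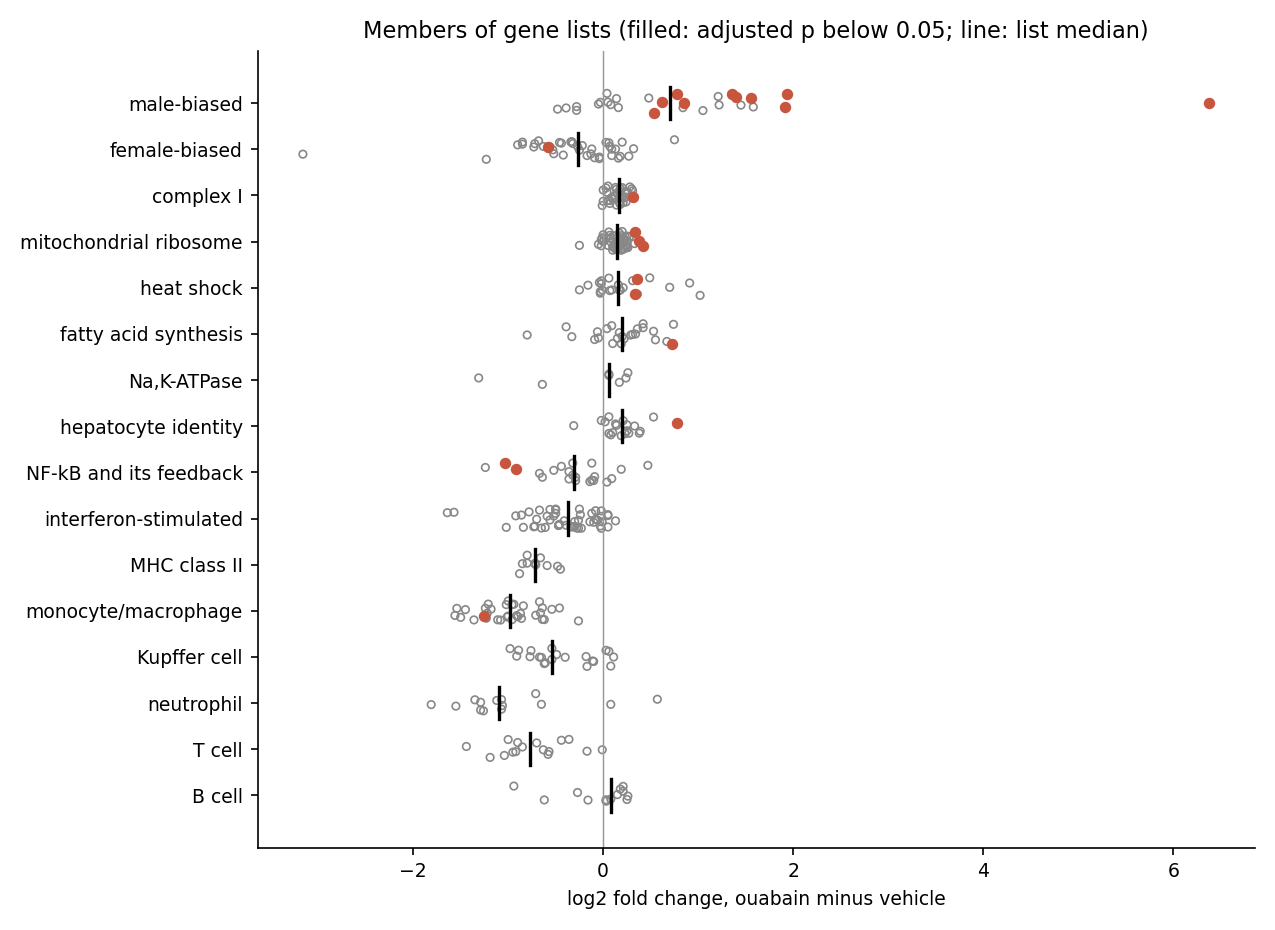
Log2 fold change of each tested member of 16 gene lists, with filled points for members at an adjusted p below 0.05 and a black line at the list median. Male-biased genes have 10 filled points to the right of 0 and a median of 0.70, while monocyte and macrophage genes all lie left of 0 with 1 filled point.

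Single enzyme genes outside the sex-biased lists rose, and those named here were chosen after their values were seen. The lists of urea cycle and amino acid, bile acid and cholesterol synthesis genes had no call by edgeR, with medians of 0.03, 0.04 and 0.00. DESeq2 called 1, 0 and 1 of them. At an unadjusted p below 0.05, 4, 3 and 2 genes were higher and 5, 1 and 1 were lower. The enzymes that rose included 3 members of the 3-beta-hydroxysteroid dehydrogenase family on chromosome 3, which convert or reduce steroids. Hsd3b3 went from 27 to 61.8 CPM (median 49) to 75.1 to 126 CPM (median 97.3) and was steady (log2 fold change 1.08, SE 0.17, adjusted p = 0.0114). Hsd3b2 was steady too, at 33.5 to 42.8 CPM and then 46 to 57.9 CPM (0.48, SE 0.08, adjusted p = 0.00884). Hsd3b6, at 1.57 to 5.24 and 5.68 to 9.75 CPM, passed 6 of the 12 leave-one-out fits (1.14, SE 0.23, adjusted p = 0.0247). None of the 3 overlapped between groups. They are close relatives, so how reads shared between copies were counted bears on each value.

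The carboxylesterases hydrolyse lipid esters and drugs in the endoplasmic reticulum. Ces3b rose from 88.2 to 201 CPM (median 134) to 260 to 424 CPM (median 351) and was steady (1.33, SE 0.19, adjusted p = 0.00865). Its neighbour Ces3a had 66.5 to 323 CPM in vehicle and 517 to 716 CPM in ouabain livers (1.51, SE 0.32, adjusted p = 0.0453). It passed 4 of 12. Those were the 2 rises among 13 carboxylesterases tested, where 0.853% of all tested genes rose, and the list median was 0.21. With the GC correction 1 remained called, since Ces3a had an adjusted p of 0.0587.

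Nat8f1, an N-acetyltransferase of the Nat8 family on chromosome 6, had the second smallest p-value. Its 6 vehicle libraries lay between 83.9 and 110 CPM and its 6 ouabain libraries between 141 and 174 CPM. The log2 fold change of 0.73 had an SE of 0.08 (adjusted p = 0.000533). A difference of under 2-fold thus left a clear gap between the groups.

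Kyat1, which transaminates kynurenine and glutamine, rose from 81.3 to 115 CPM to 126 to 161 CPM (0.58, SE 0.09, adjusted p = 0.00865) and was steady. Pgp, the phosphatase that removes phosphoglycolate and glycerol phosphate, went from 7.9 to 10.3 CPM to 10.5 to 17.4 CPM (0.70, SE 0.12, adjusted p = 0.0142), also steady. Both enzymes acting on glyoxylate that were named for their values, Hao1 (glycolate oxidase; 0.51, adjusted p = 0.0429) and Grhpr (glyoxylate reductase; 0.52, adjusted p = 0.0286), rose without overlap between groups, and passed 4 and 6 of the leave-one-out fits. Car14, a membrane carbonic anhydrase, rose from 29.1 to 40 CPM to 44.4 to 56.5 CPM (0.53, SE 0.10, adjusted p = 0.0177) and passed 10.

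Of 25 fatty acid synthesis genes, 1 rose by edgeR, where 0.853% of all tested genes rose. The median was 0.20 (19 of 25 above 0). DESeq2 called 5 rises, and 10 genes were higher and 1 lower at an unadjusted p below 0.05. With the GC correction described below no gene of the list passed by edgeR. The gene that rose by edgeR was Srebf1, which encodes the transcription factor SREBP1 that drives lipogenesis. The other 5 ouabain livers were above all vehicle livers (183 to 225 CPM) while ouabain replicate 1 was within their range at 195 CPM, with a group maximum of 427 CPM (0.72, SE 0.14, adjusted p = 0.0266; 5 of 12 leave-one-out fits). Its targets Fasn (0.55, SE 0.23, adjusted p = 0.202) and Scd1 (0.22, SE 0.41, adjusted p = 0.792) did not pass. Angptl8, a feeding-induced inhibitor of lipoprotein lipase, rose from 24.2 to 47.5 CPM to 52.5 to 112 CPM (1.05, SE 0.23, adjusted p = 0.0454; 3 of 12), and Mlycd, which degrades malonyl-CoA, rose by 0.28 (adjusted p = 0.0454; 2 of 12).

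Nuclear genes for mitochondria were higher by small amounts. In complex I of the respiratory chain 34 of 36 subunits had positive log2 fold changes with a median of 0.17, and in complex IV all 20 did with a median of 0.14. Complexes II and III had a median of 0.13 and complex V one of 0.16. Few single genes passed, where 0.853% of all tested genes rose. They were Ndufv1 of complex I (133 to 158 CPM and 177 to 207 CPM; 0.31, adjusted p = 0.0355), Uqcrc1 of complex III (0.38, adjusted p = 0.0259) and Atp5g1 of complex V (0.33, adjusted p = 0.0242), all without overlap and passing 3, 5 and 7 of 12. None of complex IV passed at an adjusted p below 0.05, while 5 of its 20 had an unadjusted p below 0.05 and DESeq2 called 4.

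The mitochondrial ribosome had 3 rises among 49 genes, where 0.853% of all tested genes rose, and a median of 0.15. With the GC correction 1 rise passed (Mrps30), and Mrpl38 and Mrps18b had adjusted p-values of 0.0608 and 0.072. Complex I and complexes II and III each went from 1 rise to 0. Mrpl38 stood at 36.7 to 39.8 CPM in vehicle and 44.3 to 61.6 CPM in ouabain livers (0.42, SE 0.08, adjusted p = 0.0177; 10 of 12). Mrps18b (0.38, adjusted p = 0.0429) and Mrps30 (0.33, adjusted p = 0.0418) were the others, each passing 3 of 12. The import machinery gave Tomm40, a pore protein of the outer membrane (0.47, adjusted p = 0.0242; 7 of 12), and Timm13, a small chaperone between the membranes (0.41, adjusted p = 0.0454; 3 of 12). Ndufaf4, an assembly factor of complex I, rose by 0.66 (SE 0.13, adjusted p = 0.0259; 6 of 12). By contrast, 14 of the 15 transcripts of the mitochondrial genome were below 0, with a median of -0.18 (-0.27 without vehicle replicate 4) and none past the threshold (DESeq2 called none, and 2 had an unadjusted p below 0.05). Those transcripts have a median GC content of 36.0%, and with the GC correction described below their median was -0.01, while those of complex I and of the mitochondrial ribosome were 0.15 each.

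A few further rises were singled out after their values were seen. Srm, the spermidine synthase (chromosome 4), was steady, at 11.6 to 15.4 CPM (median 13) in vehicle and 18.7 to 25.8 CPM (median 21.9) in ouabain livers (0.72, SE 0.10, adjusted p = 0.00638). Dohh, which completes the spermidine-derived hypusine on the translation factor eIF5A, rose by 0.41 (adjusted p = 0.0372; 3 of 12). Rrp12 (0.81, SE 0.17, adjusted p = 0.0284; 6 of 12) and Bms1 (0.38, adjusted p = 0.0454; 3 of 12) act in the assembly of ribosomal subunits. The 74 cytosolic ribosomal protein genes had a median of -0.02, with 1 rise, where 0.853% of all tested genes rose.

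Of the 23 heat shock genes tested, 2 rose by edgeR, where 0.853% of all tested genes rose. DESeq2 called 6 rises, and 10 genes were higher and none lower at an unadjusted p below 0.05. In the 23 heat shock genes, the HSP70 partners Dnaja1 (131 to 160 CPM and 162 to 198 CPM; 0.36, adjusted p = 0.0259; 6 of 12) and Dnaja2 (0.33, adjusted p = 0.0296; 4 of 12) rose and the median was 0.16. Hspa8, the constitutive HSP70, did not overlap between groups at 449 to 586 and 602 to 788 CPM but had an adjusted p of 0.0671 by edgeR. Derl3, a membrane protein of endoplasmic reticulum degradation, was the only rise among 30 chaperone and quality control genes of that compartment, whose median was 0.14. It was at 0.718 to 0.983 CPM in vehicle and 1.7 to 5.19 CPM in ouabain livers (2.16, SE 0.27, adjusted p = 0.00268) and was steady. It reached 1 CPM in none of the vehicle libraries and so passed the filter through the ouabain group.

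Several other rises were steady. Nrep, first described as a neuronal regeneration related protein, went from 3.9 to 11.3 CPM (median 5.79) to 14.2 to 44.7 CPM (median 32.9; 2.21, SE 0.32, adjusted p = 0.00987). Clec2h, a C-type lectin-like gene, went from 0.197 to 1.13 CPM to 2.65 to 13 CPM (3.49, SE 0.52, adjusted p = 0.00884). It reached 1 CPM in 1 vehicle library and so passed the filter through the ouabain group. Vegfa, the endothelial growth factor, showed how small a change could pass. Its groups were narrow, at 101 to 112 CPM and 124 to 142 CPM, and the log2 fold change was 0.35 (SE 0.06, adjusted p = 0.0138). The receptor tyrosine kinase gene Epha1 (21.5 to 28.1 and 33.8 to 50 CPM; 0.69, SE 0.11, adjusted p = 0.00865) and the kinase gene Dclk3 (0.72, adjusted p = 0.00884) were likewise steady and separate. Ptgds, a prostaglandin D2 synthase, overlapped slightly between groups (2.13, SE 0.40, adjusted p = 0.0259; 7 of 12).

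The 20 hepatocyte identity genes had a median of 0.20 with 18 above 0, and their mean log2 CPM was 9.47 to 9.63 in vehicle and 9.67 to 9.92 in ouabain livers. Foxa1, a pioneer factor of hepatocyte genes, was the 1 that passed by edgeR (2.78 to 5.52 CPM and 6.25 to 9.37 CPM; 0.78, SE 0.16, adjusted p = 0.0266; 8 of 12), where 0.853% of all tested genes rose. With the GC correction described below its adjusted p was 0.0515, and no gene of the list passed. DESeq2 called 4 rises, and 8 genes were higher and 1 lower at an unadjusted p below 0.05. Ttr, the transthyretin gene, did not overlap between groups at 2915 to 4982 and 5039 to 6261 CPM, but its adjusted p was 0.106 by edgeR. The part of this shift in the rises of single hepatocyte genes was not tested.

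The falls included some genes of NF-kB signalling and inflammation. Tnfrsf1b, which encodes TNF receptor 2 (chromosome 4), was at 35.8 to 57.1 CPM (median 47.9) in vehicle livers and within 27.4 to 30.8 CPM (median 28.9) in ouabain livers. The ouabain range was narrow and lay wholly below the vehicle range (-0.71, SE 0.11, adjusted p = 0.00865; steady). Tifa, an adaptor that carries signals to TRAF6 and NF-kB, fell from 22.9 to 33.7 CPM (median 28.3) to 14 to 18.2 CPM (median 16.8; -0.78, SE 0.11, adjusted p = 0.00638), and was steady. Cebpd, a transcription factor of the acute phase, fell from 7.33 to 12.1 CPM to 4.72 to 6.61 CPM (-0.78, SE 0.14, adjusted p = 0.0177), steady as well.

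Of 22 NF-kB subunit and feedback genes, 2 fell and none rose, where 0.674% of all tested genes fell, with a median of -0.31. They were Tnfaip3, the A20 protein that limits NF-kB activity (4.23 to 9.17 CPM and 1.65 to 4.1 CPM; -1.03, SE 0.22, adjusted p = 0.0315; 6 of 12), and Nfkbiz, an atypical inhibitor of kappa B that co-activates some targets (-0.92, SE 0.21, adjusted p = 0.0454; 3 of 12). With the GC correction both were just outside the threshold (adjusted p = 0.0515 and 0.0587) at log2 fold changes of -1.01 and -0.93. The chemokine Ccl2, which attracts monocytes, fell from 2.29 to 5.25 CPM to 0.472 to 2.14 CPM (-1.62, SE 0.35, adjusted p = 0.0316; 4 of 12). It reached 1 CPM in 2 ouabain libraries and so passed the filter through the vehicle group. Tnf had 53 counts in all vehicle livers and 13 in all ouabain livers and Il6 had 11 and 1, too few to test. Il1b, a cytokine of activated macrophages, was at 6.34 to 23.8 and 2.44 to 10.4 CPM (-1.26, SE 0.42, adjusted p = 0.132).

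The falls also included single genes of leukocytes. Rgs1, which dampens chemokine receptor signalling in lymphocytes and myeloid cells, was at 4.76 to 9.68 CPM (median 6.24) in vehicle and at 1.11 to 3.64 CPM (median 1.69) in ouabain livers (-1.70, SE 0.26, adjusted p = 0.00865; steady). Itga4, the alpha 4 integrin by which leukocytes adhere, fell from 5.05 to 9.64 CPM to 2.87 to 4.35 CPM (-1.13, SE 0.18, adjusted p = 0.00884; steady). Neither overlapped between groups. Itgax, the CD11c integrin of dendritic cells and macrophages, passed 11 of the 12 leave-one-out fits (3.05 to 7.52 and 1.45 to 2.36 CPM; -1.25, SE 0.23, adjusted p = 0.0177). Sorl1 (-0.95; 10 of 12), the myeloid receptor Cd84 (-0.98; 7 of 12), the RNA sensor Tlr13 (-1.09; 6 of 12), the macrophage elastase Mmp12 (-1.31; 6 of 12), the chemokine receptor Cxcr4 (-1.34; 4 of 12) and Anxa1, an anti-inflammatory annexin (-0.89; 4 of 12), had adjusted p-values of 0.0212 to 0.0323. Cxcr4 reached 1 CPM in 5 of the ouabain libraries and in all 6 of vehicle.

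Most marker lists of immune cells had medians below 0, while few members passed by edgeR. All 34 monocyte and macrophage genes had negative log2 fold changes, with a median of -0.98, and 1 (Itgax) passed by edgeR, where 0.674% of all tested genes fell. DESeq2 called 12 and quality weights 11, and 25 had an unadjusted p below 0.05. The sum of their CPM was 544 to 1630 in vehicle and 374 to 856 in ouabain livers, so the groups overlapped. The highest library was vehicle replicate 4, and without it and ouabain replicate 5 the median was -0.71. Ccr2, the receptor that brings monocytes into tissue, was near the threshold (3.05 to 10.6 and 2.1 to 3.64 CPM; -1.22, SE 0.29, adjusted p = 0.0541). Ms4a7 (-1.18, adjusted p = 0.0595) and Cybb, the NADPH oxidase subunit of phagocytes (-1.08, adjusted p = 0.118), did not pass.

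Of 21 Kupffer cell genes none passed by edgeR or DESeq2, 2 had an unadjusted p below 0.05, and the median was -0.54, -0.20 without vehicle replicate 4 and -0.18 without that library and ouabain replicate 5. Adgre1, which encodes F4/80, was at 19.1 to 119 CPM in vehicle and 13.6 to 36 CPM in ouabain livers (-0.98, SE 0.48, adjusted p = 0.276), with vehicle replicate 4 far above the rest. Clec4f, which is particular to Kupffer cells in mice, had a log2 fold change of -0.67 (SE 0.45, adjusted p = 0.413) and Timd4, of resident Kupffer cells, one of -0.18 (SE 0.52, adjusted p = 0.878). Over the Kupffer list, 17 log2 fold changes were negative and 4 were positive. Ptprc, the CD45 antigen of leukocytes, was at 15.8 to 40.8 and 9.2 to 20.2 CPM (-1.0, SE 0.27, adjusted p = 0.0899).

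Of 22 genes of lipid-associated macrophages 3 fell by edgeR (Cd36, Itgax and Mmp12), where 0.674% of all tested genes fell. The median was -0.53, DESeq2 called 7 falls and 1 rise, and with the GC correction 2 fell. Their mean log2 CPM was 5.75 to 6.04 in vehicle and 5.21 to 5.61 in ouabain livers, without overlap. Their summed CPM went the other way, at 19100 to 21800 and 22100 to 25600. Of 13 dendritic cell genes 1 fell by either tool, with a median of -0.68. It was Tcf4, a transcription factor of plasmacytoid dendritic cells and other types (-0.54, SE 0.10, adjusted p = 0.0193; 9 of 12), which did not pass with the GC correction (adjusted p = 0.0615). Plasma cell genes had 1 rise, Derl3, among 15, where 0.853% of all tested genes rose, and a median of -0.35. The lists that follow had no call by edgeR. The median was -1.10 over 14 neutrophil genes (summed CPM 141 to 620 and 118 to 243; DESeq2 called 2 and 7 had an unadjusted p below 0.05) and -0.78 over 16 T cell genes (29.5 to 81.2 and 29.3 to 46; DESeq2 called 1, and 4 had an unadjusted p below 0.05). It was -0.72 over 10 MHC class II genes, led in level by Cd74 (84.4 to 456 and 83.5 to 213 CPM; -0.66, SE 0.42, adjusted p = 0.393). For class II, DESeq2 called 0 and 4 had an unadjusted p below 0.05. The 50 interferon-stimulated genes had a median of -0.36 (DESeq2 called 3, and 11 had an unadjusted p below 0.05). B cell genes were at 0.08 over 13, with neither a call by either tool nor an unadjusted p below 0.05. Single libraries moved some of these medians. The T cell median was -0.40 without vehicle replicate 1, the interferon median -0.12 without vehicle replicate 3, and the B cell median -0.52 without ouabain replicate 2 and -0.06 without vehicle replicate 3. In the monocyte, Kupffer cell, neutrophil, T cell and class II lists the vehicle range of summed CPM was wider than the ouabain range, while B cell genes were highest in ouabain replicate 2. The highest library was vehicle replicate 4 for monocyte and Kupffer cell genes, replicate 3 for neutrophil and class II genes and replicate 1 for T cell genes. The part of these lists in the falls of single immune genes was not tested.

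**Figure D3:**
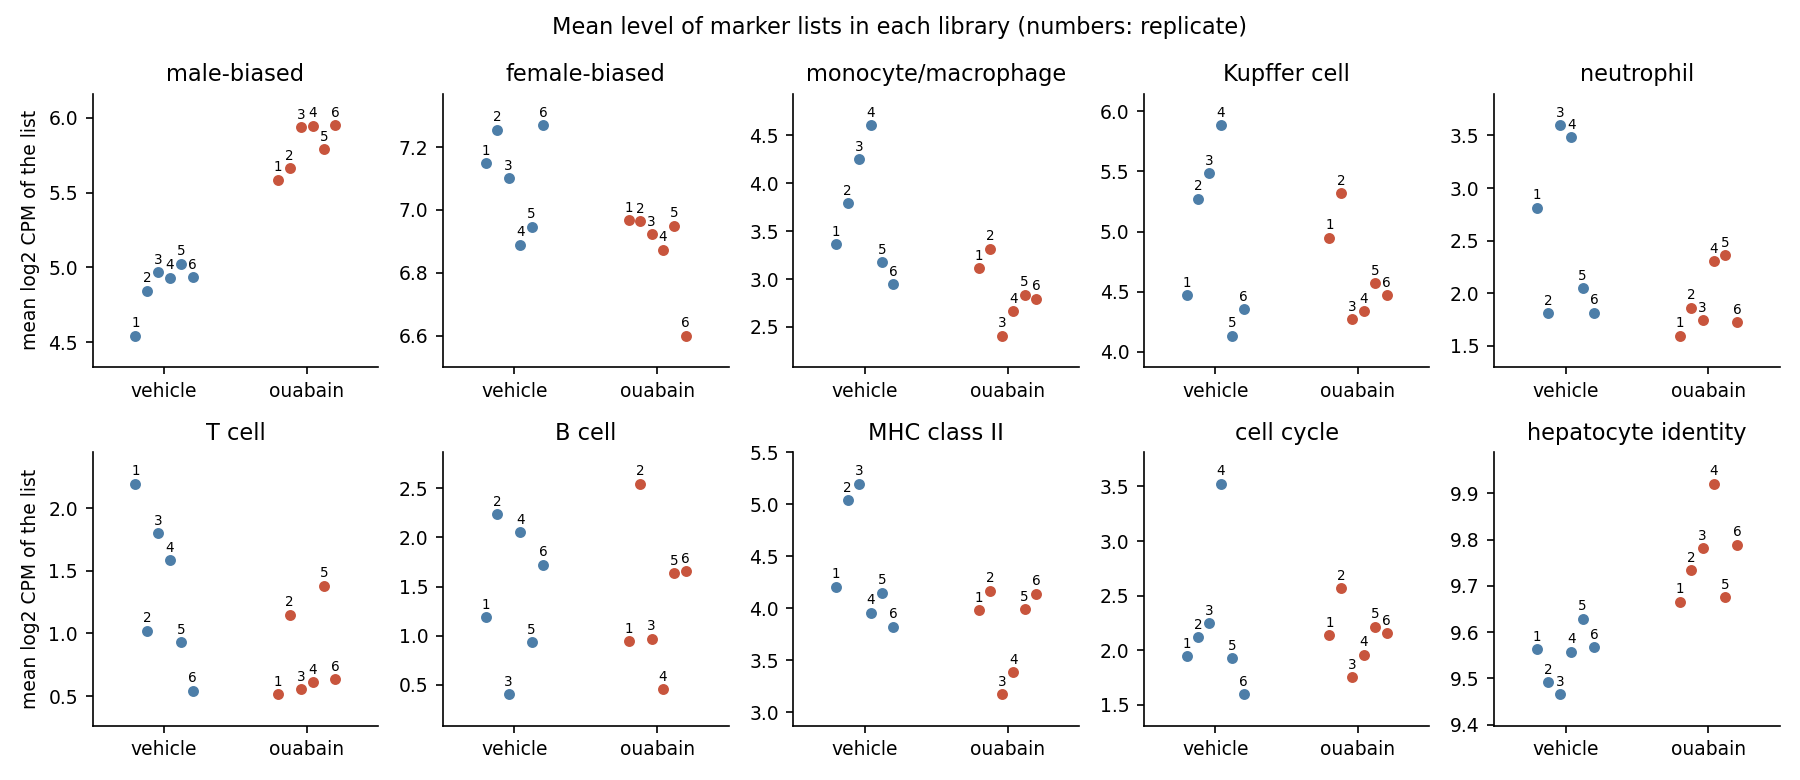
Mean log2 CPM of 10 marker lists in each library, with the replicate number above each point. The male-biased list separates the groups, at 4.54 to 5.03 in vehicle and 5.59 to 5.95 in ouabain livers. The hepatocyte identity list separates them too, at 9.47 to 9.63 and 9.67 to 9.92. The remaining lists shown overlap, among them the monocyte, Kupffer cell, neutrophil, T cell and B cell lists.

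Other falls were of genes known for induction by signals or stress, and were chosen after their values were seen. The lists of immediate early and of integrated stress response genes, 24 tested in each, had no call by edgeR. In the immediate early list DESeq2 called 4, 9 genes were lower at an unadjusted p below 0.05, and the median was -0.37. In the stress response list DESeq2 called 1, 2 genes were higher and 2 lower at an unadjusted p below 0.05, and the median was -0.10. Without vehicle replicate 1 the immediate early median was -0.14. Errfi1, an inhibitor of the EGF receptor that growth factors and glucocorticoids induce (chromosome 4), was the most abundant steady fall. It stood at 1006 to 1341 CPM (median 1169) in vehicle and at 505 to 871 CPM (median 686) in ouabain livers, without overlap (-0.79, SE 0.12, adjusted p = 0.00884). The glucocorticoid-induced Tsc22d3 fell by 0.61 on the log2 scale (adjusted p = 0.0499; 4 of 12) and Slc38a2, an amino acid transporter that hypertonic and amino acid stress induce, by 0.85 (99.6 to 230 and 82.2 to 122 CPM; adjusted p = 0.0275; 4 of 12).

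The promoter of Errfi1 holds a full cAMP response element, and is shown with those of the 3 other genes that fell and have it. Windows with the element TGACGTCA, the site of CREB and ATF factors, belonged to 4 of 63 genes that fell (6.35%), 1 of 84 that rose (1.19%) and 3.40% of the tested genes with a window. The 60 bases before the start site of those 4, with the element in capitals (RefSeq, GRCm38.p6), lie at chr9:7837058-7837117 (Birc2, minus strand), chr3:65958250-65958309 (Ccnl1, minus), chr4:150855010-150855069 (Errfi1, plus) and chr11:79254696-79254755 (Wsb1, minus).
Birc2: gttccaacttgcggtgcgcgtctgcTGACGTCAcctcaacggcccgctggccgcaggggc
Ccnl1: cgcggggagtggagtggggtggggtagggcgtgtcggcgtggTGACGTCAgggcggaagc
Errfi1: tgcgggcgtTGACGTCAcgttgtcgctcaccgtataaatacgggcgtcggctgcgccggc
Wsb1: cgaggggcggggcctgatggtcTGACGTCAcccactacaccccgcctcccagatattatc
The element reads alike on both strands and starts at -35, -18, -51 and -38. The motif TTGCNNAA of C/EBP factors, searched on both strands, was in 11.1% of the genes that fell and in 10.7% of tested genes. The kappa B motif was in 1 of 63 genes that fell (1.59%), 0 of 84 that rose and 1.77% of tested genes. These shares were not tested.

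The other carriers of the element changed as follows. Birc2, an inhibitor of apoptosis and ubiquitin ligase of the TNF pathway, fell from 24.7 to 31.2 CPM to 20.5 to 24 CPM (-0.34, SE 0.08, adjusted p = 0.048; 3 of 12). Ccnl1, a cyclin that takes part in splicing, was steady (44.5 to 56.8 and 28 to 45.9 CPM; -0.63, SE 0.11, adjusted p = 0.0154), although ouabain replicate 1, at 45.9 CPM, lay within the vehicle range. Wsb1, a ubiquitin ligase subunit, fell from 44.9 to 66.7 CPM to 21.2 to 46.8 CPM (-0.78, SE 0.15, adjusted p = 0.0259; 5 of 12).

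Among the other steady falls were genes that regulate RNA or chromatin. Zfp292, a large zinc finger protein, fell from 25.1 to 35.2 CPM to 16.1 to 23.4 CPM (-0.75, SE 0.11, adjusted p = 0.00638). The splicing regulators Celf2 (18.5 to 29.5 and 12.6 to 16.7 CPM; -0.70, SE 0.11, adjusted p = 0.00884) and Mbnl2 (32.7 to 45.6 and 22.4 to 28.6 CPM; -0.56, SE 0.09, adjusted p = 0.00987) fell too. Bmi1, the Polycomb protein that represses the Cdkn2a locus, was at 20.4 to 27.7 and 14.6 to 17.1 CPM (-0.52, SE 0.09, adjusted p = 0.0144). None of these 4 overlapped between groups. Srrm4, a splicing factor best known from neurons, had a larger log2 fold change (-1.34, SE 0.25, adjusted p = 0.0242) but passed 8 of 12.

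Other falls were of enzyme and lipid receptor genes. Cd36, the fatty acid and lipoprotein receptor, fell from 155 to 235 CPM (median 167) to 85.4 to 134 CPM (median 110; -0.73, SE 0.13, adjusted p = 0.0138). Asah1, the acid ceramidase of lysosomes, fell from 44.3 to 56.2 CPM to 31.5 to 41.1 CPM (-0.52, SE 0.08, adjusted p = 0.00884). Both were steady and separate between groups. The enzyme genes Cyp2c38 (-0.55, adjusted p = 0.0209; 10 of 12) and Cdo1, the cysteine dioxygenase (1603 to 2227 and 1244 to 1721 CPM; -0.42, adjusted p = 0.0495; 2 of 12), fell with less stability.

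Matrix and growth factor genes gave Adamtsl1, a secreted ADAMTS-like protein (2.57 to 3.77 and 0.665 to 1.49 CPM; -1.36, SE 0.21, adjusted p = 0.00884; steady), and Glipr2, a Golgi-associated protein (-1.32, SE 0.23, adjusted p = 0.0138; steady). They reached 1 CPM in 4 and 3 ouabain libraries and so passed the filter through the vehicle group. Ccn2, the connective tissue growth factor and a YAP target, had the largest fall by the naming rule. It was at 11.2 to 39.8 CPM and 2.75 to 11.5 CPM, so the groups just met (-1.92, SE 0.41, adjusted p = 0.0454; 2 of 12). The 24 YAP targets tested had 1 rise, 1 fall and a median of 0.01, where 0.853% of all tested genes rose and 0.674% fell. DESeq2 called 1 rise and 2 falls of them, and 2 were higher and 4 lower at an unadjusted p below 0.05. Stellate and mesenchymal genes had a median of 0.01 over 38, with Bgn (biglycan; -0.30, adjusted p = 0.0352; 4 of 12) the 1 fall by edgeR. DESeq2 called 3 falls there, and 3 genes were higher and 9 lower at an unadjusted p below 0.05.

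The senescence marker Cdkn1a did not pass, and Cdkn2a was too low to be tested. Cdkn1a, which encodes p21, was at 1.26 to 19.2 CPM in vehicle and 1.42 to 5.41 CPM in ouabain livers (-1.17, SE 0.51, adjusted p = 0.225), highest in vehicle replicate 4. Cdkn2a, which encodes p16, had 48 counts in all vehicle livers and 40 in all ouabain livers. Among 33 p53 pathway genes 1 fell by edgeR, where 0.674% of all tested genes fell, and the list median was -0.11. The gene was Trp53inp1, a p53-induced regulator of autophagy (71.3 to 149 and 32.8 to 80.3 CPM; -1.14, SE 0.22, adjusted p = 0.0269; 4 of 12). DESeq2 called 3 falls in the list, and 3 genes were higher and 8 lower at an unadjusted p below 0.05. Of 39 secreted senescence factors 3 fell (Ccl2, Mmp12 and Tnfrsf1b), where 0.674% of all tested genes fell, and 1 (Vegfa) rose. The median was -0.36, 34 of 39 were below 0, 14 were lower at an unadjusted p below 0.05, and with the GC correction 1 fell. The proliferation marker Mki67 was at 28.2 CPM in vehicle replicate 4 and at 3.9 to 8.86 CPM in the other vehicle livers (-1.01, SE 0.50, adjusted p = 0.279). The cell cycle list median of -0.27 was 0.05 without that library and 0.06 without it and ouabain replicate 5.

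Genes of the Na,K-ATPase, the target of the drug, did not pass. Atp1b1, a beta subunit, was at 42 to 73.7 and 52.2 to 67.1 CPM (0.26, SE 0.13, adjusted p = 0.27). Of the 7 subunit and FXYD genes tested edgeR and DESeq2 each called none, and 3 had an unadjusted p below 0.05, 1 above and 2 below 0.

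The direction of change followed the base composition of the transcripts. The longest annotated transcript of the genes that rose had a median GC content of 55.0%, against 43.6% for those that fell and 49.6% for all. Across 13440 genes with an annotated transcript, log2 fold change and GC content correlated at r = 0.23, as a description over genes that share libraries. When the genes were split into 10 equal groups by GC, the median log2 fold change ran from -0.15 in the lowest, with 9 rises and 30 falls, to 0.11 in the highest, with 36 rises and 1 fall. Each library's own slope against GC separated most of the samples. It was -0.113 to 0.00779 on the log2 scale per 10 percentage points of GC in vehicle livers and 0.053 to 0.144 in 5 ouabain livers, while ouabain replicate 1 (-0.059) lay among the vehicle livers.

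**Figure D4:**
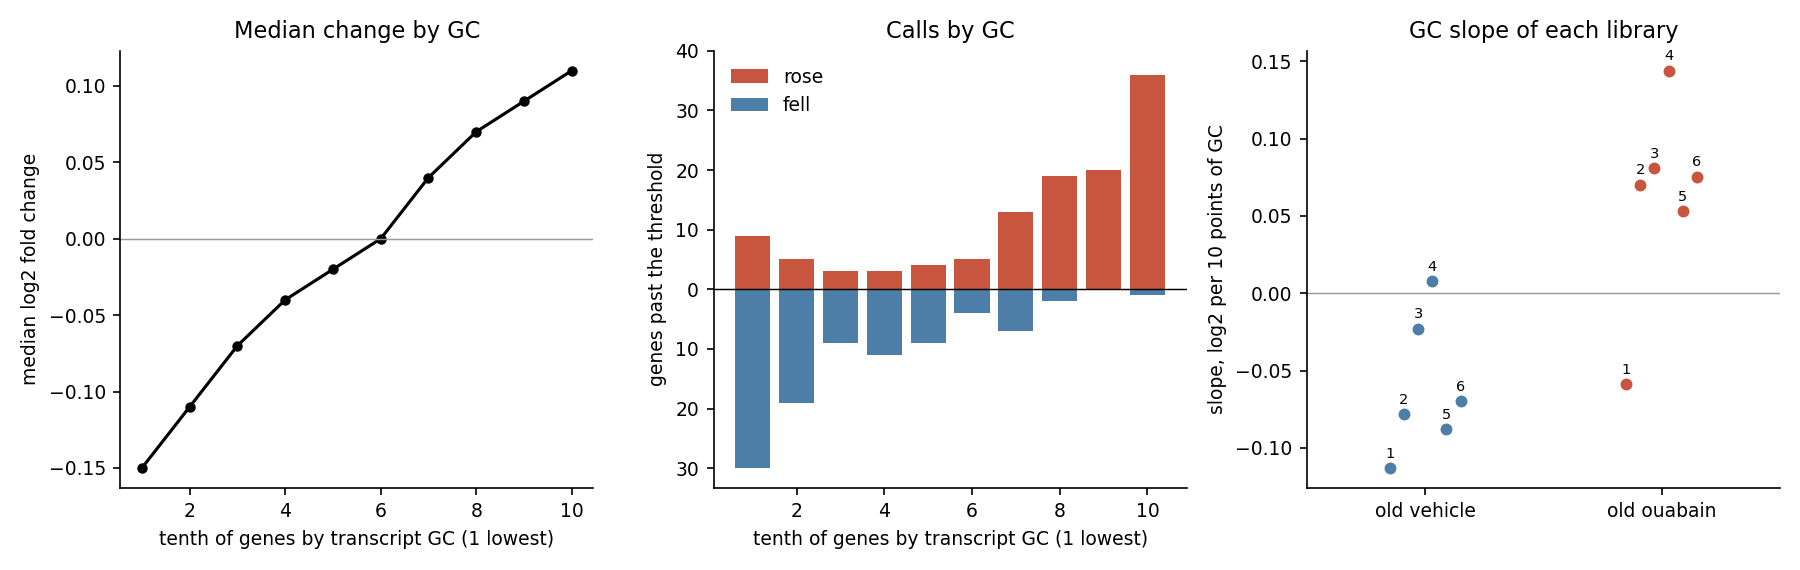
Left, median log2 fold change in 10 equal groups of genes ordered by transcript GC content. Centre, genes that rose (above 0) and fell (below 0) in each group; right, the slope of each library's log2 level against GC, with the replicate number. The median climbs from -0.15 to 0.11, and 5 of 6 ouabain slopes lie above all 6 vehicle slopes.

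When the trend with GC was removed from each library, a setting chosen after seeing the data, 97 genes passed, 92 of them among the 213 (46 rises and 46 falls). Of the 41 steady genes, 40 were among them. Pkdcc, a secreted kinase, was the exception (0.54, adjusted p = 0.016, and 0.35, adjusted p = 0.0896 after the correction). The male-biased list still had 10 rises and a median of 0.69, and the monocyte and macrophage list a median of -0.97. Small rises in GC-rich genes weakened most. Ndufv1, Dohh, Mlycd and Timm13 had corrected log2 fold changes of 0.21, 0.23, 0.15 and 0.30, none past the threshold. The part of GC content in the other calls was not tested.

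The X chromosome held falls and no rises. Of 494 X-linked genes tested, 17 fell (3.44%), against 75 of 12923 autosomal genes (0.58%; 0.144% to 1.53% on single autosomes), where 117 rose. Besides Tlr13, Bgn and Tsc22d3 they included Xlr3b (2.26 to 9.14 and 1.03 to 1.42 CPM; -1.78, SE 0.33, adjusted p = 0.0177; 10 of 12), the lysosomal sulfatase Ids (16 to 21.6 and 10.4 to 14.2 CPM; -0.53, adjusted p = 0.0177; 11 of 12), the lymphocyte adaptor Sash3 (-1.31, adjusted p = 0.0326; 4 of 12) and Rlim, the ubiquitin ligase that activates Xist in mouse embryos (36.4 to 40.4 and 27.2 to 31.9 CPM; -0.33, SE 0.07, adjusted p = 0.0266; 6 of 12). In 12 of the 17 the groups did not overlap, as was so for most of the 213 changed genes.

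X-linked genes as a group were only slightly lower, with a median of -0.07, and their median GC content of 46.3% is below the 49.6% of all tested genes. With GC groups numbered from 1 (lowest) to 10, the X-linked median was below the autosomal one except in groups 5 (-0.01 and -0.02) and 8 (0.11 and 0.07). It was -0.17 for 100 X-linked and -0.15 for autosomal genes in group 1, -0.14 and -0.10 in group 2, and 0.04 and 0.11 in group 10. Of the 1344 genes in group 1, 30 fell, and 7 of these were X-linked. With the GC correction 7 of the 494 X-linked genes fell and none rose, where 47 of all 13951 tested genes fell. The X-linked median was then -0.035, against -0.029 to 0.009 on single autosomes. The part of GC content in the X-linked falls was not tested. Xist, the RNA that silences one X chromosome in females, was at 398 to 539 CPM in vehicle and 395 to 474 CPM in ouabain livers (-0.11, SE 0.09, adjusted p = 0.491).

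**Figure D5:**
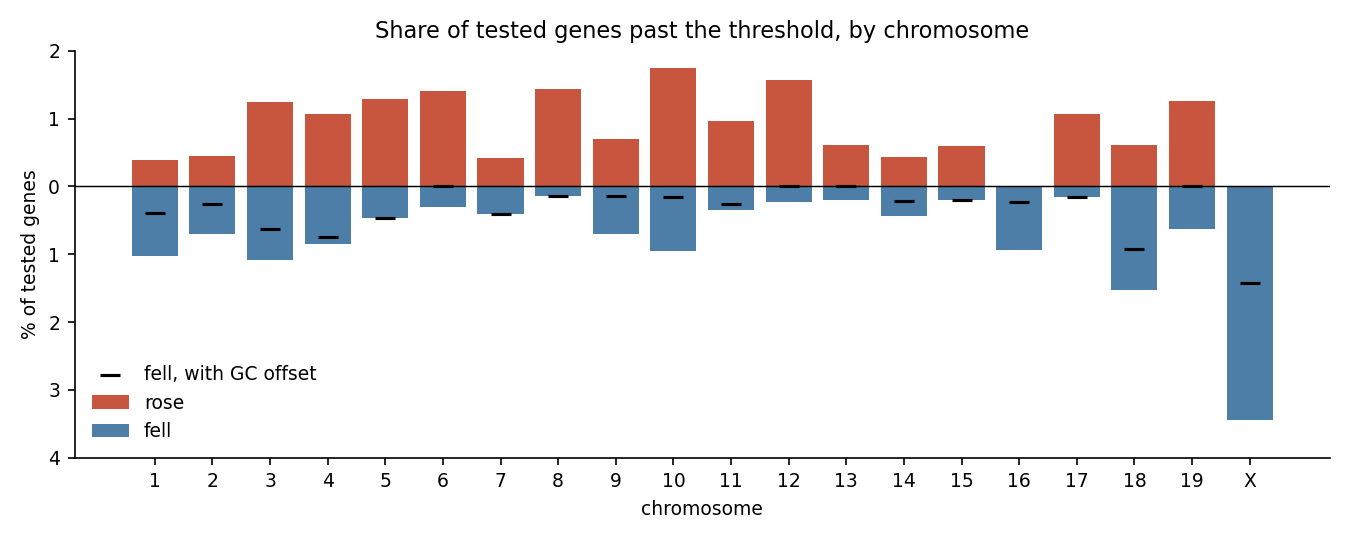
Percentage of tested genes on each chromosome that rose (above 0) or fell (below 0) at an adjusted p below 0.05, with a black dash at the falls that passed after the GC correction. The X chromosome has 3.44% falls and no rises, while no autosome exceeds 1.53% falls.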

How the data were processed

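Liver RNA of old female mice was measured by sequencing in 12 libraries, 6 per group. Per the submitters' processing notes, TopHat2 2.0.11 and featureCounts were used, with mm9 as the mouse build. The authors deposited raw counts per gene, not normalized. Strand setting and annotation release are not stated, so overlapping, antisense and closely related genes are uncertain. Symbols matched 32897 of 37620 identifiers, and the others hold 1.46% of counts.

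Genes with at least 1 CPM in at least 6 of the 12 libraries were tested with edgeR 4.0.16 in R 4.3.3 (TMM, robust quasi-likelihood F-test, the 2 groups only, two-sided, called at a Benjamini-Hochberg adjusted p under 0.05). Every adjusted p is from that fit unless another tool is named. SE is the absolute log2 fold change over the root of F. The biological coefficient of variation was 0.184. A count of 0 allows up to 3 counts, or 0.281 to 0.714 CPM, for counting error only. The chi-square per gene between libraries of a group was 4.88 to 50.9, so none appeared to be deposited more than once. On simulated counts for 13951 genes, the fit recovered 85% of 2-fold and 98% of 4-fold changes, with 3.7% false calls. Those counts were drawn independently from the fitted dispersions. They held no GC trend and no outlying library, so these shares may not hold for the measured libraries.

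Members and lists were chosen with earlier results of these data known. Named genes were, among changed genes averaging 2 or more in log2 CPM and without predicted, Mup, receptor segment and pseudogene names, the 12 largest rises and falls and the 8 smallest p-values per direction. Up to 5 changed and 3 other members per list and a set of fixed genes were added, and the text gives those of the lists it describes. Some genes that these choices select are left out of the text. GC content is that of GENCODE M21 transcripts, and promoters are from RefSeq GRCm38.p6, so no mm9 coordinates are given. Alternatives used limma 3.58.1, DESeq2 1.42.0 and sva 3.50.0. The GC correction removed a lowess trend (span 0.3) from each library.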

Additional observations from a re-analysis of the deposited data

Results flagged for a closer look

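A library was singled out where it lay far from the other 5 of its group by Dixon's criterion, which chance meets in about 1 in 20 groups. Values are CPM.

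Ouabain replicate 1 was the library apart in 7 genes. It was the highest of its group for Ccnl1 (45.9), Trp53inp1 (80.3) and Il1b (10.4), and the lowest for Igf1 (499), Tomm40 (25.7), Cebpa (325) and Kti12 (12.1). Vehicle replicate 4 was apart in Adgre1 (119), Mki67 (28.2), Selenbp2 (202) and Xlr3b (9.14), each time as the highest. Over lists, its mean log2 CPM was the highest for cell cycle genes (3.53) and the lowest for transcripts of the mitochondrial genome (10.3).

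Vehicle replicate 1 was the highest for Ids (21.6), Rlim (40.4), Srrm4 (24.3) and Sult1e1 (315). Vehicle replicate 6 was the highest for Cyp2c38 (110) and Ugt2b1 (152), and vehicle replicate 3 for Itgax (7.52). Ouabain replicate 2 was the lowest for Atp1b1 (52.2), the highest for Clec4f (288), and apart in the mean log2 CPM of complex V genes (7.83). Ouabain replicate 5, the shallowest library, was the highest for Cyp2u1 (6.61) and Milr1 (1.18), and ouabain replicate 3 for Hspa1b (12). Ouabain replicate 6 had the lowest mean log2 CPM of female-biased genes (6.6).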

How the results depend on the processing

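The count of 213 changed genes was 636 with DESeq2, 701 with voom quality weights, 40 with 1 surrogate variable, 99 without vehicle replicate 4 and ouabain replicate 5, and 97 with the GC correction. Leaving out 1 library gave 48 to 553. Relative log expression factors (200), no filter (200), filterByExpr (214), voom (184) and all 18 libraries (253) stayed within 1.5 times. Replicate numbers did not pair the samples: same-numbered deviations correlated at -0.123 to 0.147, and 1 of 6 samples correlated best with its own number. The replicate block gave 246 genes, and 134 with the GC correction, and the GC correction was chosen after seeing the data. The surrogate variable was 0.889 in ouabain replicate 5. The causes were not tested.

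Alb, at -0.02, was 0.04 with the surrogate variable, 0.10 without both libraries, 0.00 with the GC correction and 0.02 with block and GC correction; leaving out 1 library gave -0.08 to 0.06. Timd4, at -0.18, was 0.13 with voom, 0.03 with quality weights, 0.14 without both libraries and 0.05 with block and GC correction; leaving out 1 library gave -0.40 to 0.17. Neither had passed the threshold. The 4201251 counts of ouabain replicate 5 limit precision for low genes.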
